A study of Mus musculus with 16 samples.

Results

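The leukaemias described here are 8 of the 16 RNA-seq samples in a mouse study of T cell acute lymphoblastic leukaemia (T-ALL). They are the samples in which ICN, the intracellular and active part of the Notch receptor, was used to induce the disease in mice that express Miz1 deltaPOZ, and whose sample names end in Lck or in Vav. Miz1, encoded by Zbtb17, is a zinc finger transcription factor, and the deltaPOZ form lacks the POZ domain through which the protein binds its partners. Members were chosen by name and by labelled p53 status alone: 2 Lck p53-ko mice, 2 Vav p53-ko mice, 2 Lck p53-wt mice and 2 Vav p53-wt mice. All 8 share the C57Bl6 strain, ICN induction and the Miz1 deltaPOZ status. The labels give no age and do not say what the name endings stand for. Promoters of Lck and of Vav1 are both in wide use for driving Cre recombinase in mice, that of Lck in T cells from the thymus onward and that of Vav1 in nearly all blood cells, but the labels do not tie either ending to a Cre line. The other 8 samples are 4 ICN leukaemias with wild-type Miz1, 2 of them p53 ko and 2 p53 wt, whose values are given beside single genes with no test, and 4 p53-ko samples without ICN, which entered the fit only. Of the samples without ICN, 2 have wild-type Miz1 and 2 have Miz1 deltaPOZ and names ending in Vav.

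Interferons bind cell surface receptors that act through the JAK kinases on transcription factors such as Stat2 and Irf9, and these switch on a broad set of antiviral genes from promoter elements called ISRE and GAS. Interferon gamma, made by T cells and NK cells, also raises MHC class I presentation and the large GTPases of the Gbp and Irg families in mouse cells. Leukaemic organs also hold macrophages, neutrophils and NK cells, whose own genes are counted together with those of the leukaemia.

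Gene counts per library were 45963842 to 58271208 over the 8 libraries, with 19629 to 25387 genes detected. The share of alignments set aside as not unique was 45.81 to 56.19%, and Vav p53-wt replicate 2 stood apart from the other 3 Vav libraries with 56.19% (against 47.47 to 48.09%) and 25387 genes (against 20083 to 20588). Correlations of log2 CPM (counts relative to the scaled library size) were 0.964 to 0.981 in the 4 pairs of mice of one group and 0.955 to 0.978 in the 8 pairs of an Lck and a Vav mouse with the same p53 status. Trp53 had 30.6 and 23.4 CPM in Lck p53-ko, 17.8 and 19.3 CPM in Vav p53-ko, 93.4 and 104.9 CPM in Lck p53-wt and 113.5 and 92.2 CPM in Vav p53-wt mice, so its level followed the p53 label. Zbtb17 had 63.3 and 47.0 CPM in Lck p53-ko, 44.2 and 51.8 CPM in Vav p53-ko, 38.2 and 43.2 CPM in Lck p53-wt and 41.8 and 38.0 CPM in Vav p53-wt mice. Counts over the whole gene do not check the loss of the POZ domain. T cell genes were high in every library: over 16 genes of T cell identity the mean log2 CPM was 6.91 and 7.29 in Lck p53-ko, 7.11 and 7.0 in Vav p53-ko, 7.12 and 7.47 in Lck p53-wt and 6.99 and 7.03 in Vav p53-wt mice.

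The first question was whether leukaemias with the Lck ending differ from those with the Vav ending once p53 status is held constant. The joint contrast is the mean of 2 log2 fold changes, Lck over Vav in p53-ko mice and Lck over Vav in p53-wt mice, from edgeR's quasi-likelihood test over 17470 genes. None of the 17470 genes passed an adjusted p of 0.05 in the joint contrast (0.0% called), and the lowest adjusted p was 0.551 (edgeR, Benjamini-Hochberg). At an unadjusted p under 0.05, 376 genes were higher (2.15%) and 175 lower (1.0%) in Lck, together 551 genes or 3.15%. DESeq2 on the same groups called 17 genes, 10 higher and 7 lower. Nothing below is therefore a change that passed the edgeR test, and genes are described by their values, unadjusted p and overlap between mice.

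Genes of the interferon response lay mostly on the Lck side. Of 16 transcription factors and sensors of this response, all 16 had a positive joint log2 fold change, as had 30 of 30 antiviral effectors, 14 of 14 inducible GTPases that were tested and 11 of 12 ligands, receptors and kinases. Their median joint log2 fold changes were 0.57, 0.63, 0.62 and 0.38, beside 0.01 over all 17470 genes. These lists were chosen with earlier results of the same libraries known, so the direction is a description of these mice.

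Promoter sequence is shown for 6 such genes, as examples of the element through which interferons are known to act. Among interferon-list genes with either no overlap between Lck and Vav mice in both p53 statuses or a joint p under 0.05, 17 had a promoter window to print from, and the 6 were taken because they hold GAAA, any 2 bases, GAAA, the core of the interferon-stimulated response element, upstream of the start. The other 11, Ddx58, Oasl2, Xaf1, Cmpk2, Dtx3l, Samhd1, Ifi47, Ifng, Ifnar1, Ifnar2 and Jak2, had no upstream match in the window. Sequences are RefSeq, build GRCm38.p6, 50 bases written 5′ to 3′ along the gene's own strand, with the match in capitals. A match on the opposite strand reads TTTC, any 2 bases, TTTC.

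Tgtp1, chr11:48992294-48992343, minus strand: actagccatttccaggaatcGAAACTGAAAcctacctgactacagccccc
Tgtp2, chr11:49064253-49064302, minus strand: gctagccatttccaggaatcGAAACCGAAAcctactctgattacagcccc
Igtp, chr11:58199502-58199551, plus strand: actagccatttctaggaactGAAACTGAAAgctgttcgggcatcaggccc
Irgm1, chr11:48871421-48871470, minus strand: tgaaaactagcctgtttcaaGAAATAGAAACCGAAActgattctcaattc
Gbp7, chr3:142530263-142530312, plus strand: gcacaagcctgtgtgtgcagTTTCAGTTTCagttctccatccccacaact
Stat2, chr10:128270256-128270305, plus strand: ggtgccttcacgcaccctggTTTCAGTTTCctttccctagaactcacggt

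The match began 77 bases before the start in Tgtp1, 70 in Tgtp2, 34 in Igtp, 53 in Gbp7 and 222 in Stat2, and Irgm1 held 2 overlapping matches at 30 and 24 bases. Tgtp1, Tgtp2 and Igtp share most of the letters around the match. Tgtp1 and Tgtp2 are near-identical neighbours, and reads that fit both may have been set aside as not unique. Their levels may therefore rest on the stretches that differ. On either strand, this motif was present in 3.44% of all 32851 RefSeq windows of 250 bases before to 50 bases after a start, and in 3.91% of the 11894 tested genes with a window. Of the 53 matched genes of the 4 interferon lists, 27 held the motif (50.9%), with 9 of 10 GTPases, 7 of 10 factors, 10 of 22 antiviral effectors and 1 of 11 ligands, receptors and kinases. Counted over the same whole windows, 7 of the 17 genes held it (41.2%), a share below that of the lists as a whole. The GAS-type letters TTCNNNGAA were present in 8.3% of all windows and in 6 of those 10 GTPases. A match is a description of the window and not a site shown to be bound.

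Among factors and sensors, Zbp1, a sensor of Z-form nucleic acids on chromosome 2 (173206612 to 173218923), had 24.3 and 23.6 CPM in Lck p53-ko, against 9.64 and 6.95 CPM in Vav p53-ko mice, and 12.4 and 10.9 CPM in Lck p53-wt, against 6.3 and 8.08 CPM in Vav p53-wt mice. Lck mice lay above Vav mice in both p53 statuses, and the Lck p53-ko pair was highest. The joint log2 fold change was 1.11 (SE 0.28, edgeR adjusted p = 1.0). Miz1-wt ICN leukaemias had 12.6 and 21.95 CPM in p53-ko and 12.8 and 11.2 CPM in p53-wt mice, above the Vav p53-wt pair in all 4.

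Stat2, which acts with Irf9 on the response element, had 40.9 and 33.2 CPM in Lck p53-ko, against 31.4 and 31.3 CPM in Vav p53-ko, and 32.6 and 29.1 CPM in Lck p53-wt, against 22.1 and 24.2 CPM in Vav p53-wt mice. Stat2 was apart in both p53 statuses, at a joint log2 fold change of 0.33 (SE 0.18). Irf9, its DNA-binding partner, was not: it had 107.0 and 70.1 CPM in Lck p53-ko and 111.6 and 81.4 CPM in Vav p53-ko mice, which overlap.

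Nlrc5, the transactivator of MHC class I genes, had 136.8 and 122.6 CPM in Lck p53-ko, against 38.5 and 29.3 CPM in Vav p53-ko, and 95.3 and 99.9 CPM in Lck p53-wt, against 93.1 and 46.6 CPM in Vav p53-wt mice. The p53-ko groups lay far apart, and the p53-wt groups were separated by only a small gap. Its joint log2 fold change was 1.21 (SE 0.54, edgeR adjusted p = 1.0). Ddx58, the RNA sensor RIG-I, also had a joint p under 0.05 (joint log2 0.61, SE 0.26), with 64.6 and 61.2 CPM in Lck p53-wt against 35.4 and 33.5 CPM in Vav p53-wt mice and overlapping values in p53-ko mice. In all, 4 of 16 factors had p under 0.05 in the joint contrast, all higher in Lck, beside 2.15% of all genes. Without overlap in both p53 statuses there were 5 of 16, among them Stat2, Zbp1, Dhx58 and Nlrc5, beside 3.87% of all genes with Lck above Vav and 3.56% with Lck below Vav.

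**Figure D1:**
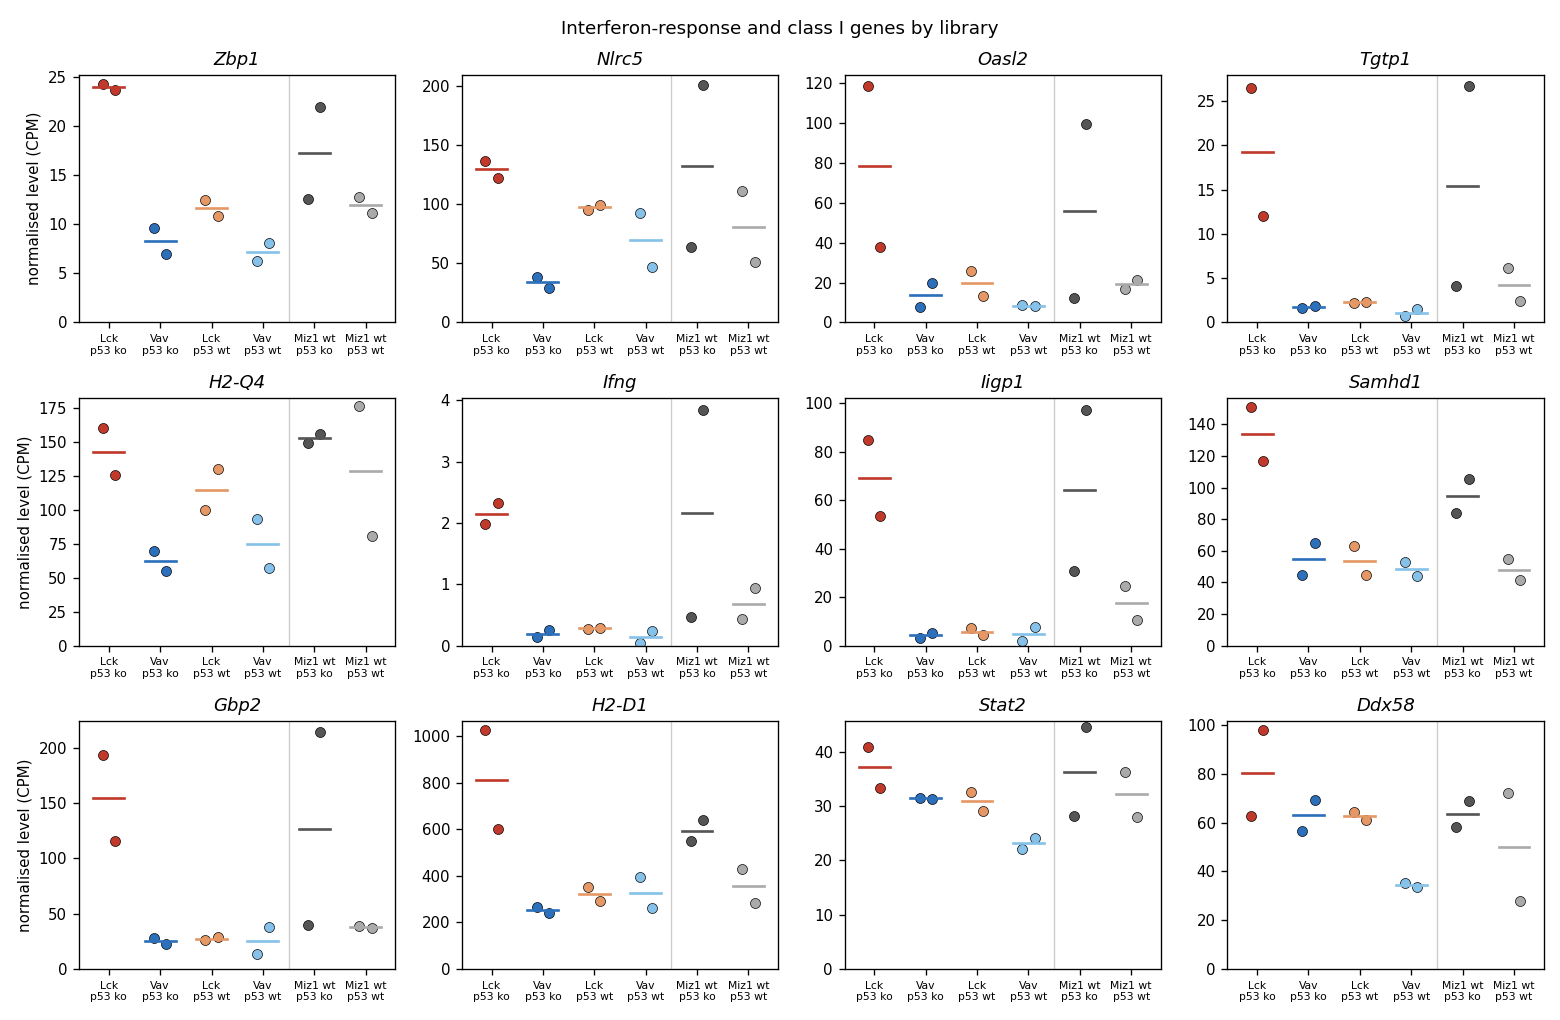
Normalised level (CPM, linear axis from 0) of 12 interferon-response and class I genes in each library, 2 mice per group, with the bar at the group mean. Lck p53-ko mice lie above Vav p53-ko mice in 11 of the panels and overlap them in that of Ddx58, while the p53-wt pairs overlap for Iigp1, Samhd1, Gbp2 and H2-D1, and Miz1-wt ICN leukaemias are shown for comparison.

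Antiviral effectors were measured with wide spread. Oasl2, a relative of the 2-5A synthetases, had 118.8 and 38.1 CPM in Lck p53-ko, against 8.0 and 19.8 CPM in Vav p53-ko, and 25.7 and 13.5 CPM in Lck p53-wt, against 8.6 and 8.31 CPM in Vav p53-wt mice. Lck was above Vav within each p53 status, although the lower Lck p53-wt mouse lay below the higher Vav p53-ko mouse, and the Lck p53-ko mice differed from each other by more than the Vav p53-ko mice did. The joint log2 fold change was 1.86 (SE 0.76, edgeR adjusted p = 1.0). Oas2, a synthetase that activates RNase L, was likewise apart within each p53 status, with 21.2 and 9.33 CPM in Lck p53-ko, 4.82 and 4.66 CPM in Vav p53-ko, 8.54 and 3.66 CPM in Lck p53-wt and 3.57 and 2.22 CPM in Vav p53-wt mice (joint log2 1.38, SE 0.59).

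Samhd1, a dNTP hydrolase that restricts viruses, was the antiviral gene with the lowest joint p: it had 151.1 and 117.0 CPM in Lck p53-ko, against 44.4 and 64.9 CPM in Vav p53-ko mice, and overlapping values of 62.8 and 44.7 CPM in Lck p53-wt and 52.6 and 43.8 CPM in Vav p53-wt mice (joint log2 0.73, SE 0.24). Abundant effectors had high values in Vav mice too. Rsad2 (viperin) had 538.7 and 261.5 CPM in Lck p53-ko, 226.7 and 465.0 CPM in Vav p53-ko, 880.2 and 359.1 CPM in Lck p53-wt and 292.8 and 326.8 CPM in Vav p53-wt mice, and Isg15, the ubiquitin-like modifier, had a joint log2 fold change of 0.77 (SE 0.63). Only 3 of 30 effectors had p under 0.05 (Oasl2, Oas2 and Samhd1, beside 2.15% of all genes), and 9 of 30 were without overlap in both p53 statuses (beside 3.87%).

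The GTPases that attack the membranes around intracellular pathogens held some of the largest fold changes of these lists. Iigp1, an Irg-family GTPase, had 84.8 and 53.4 CPM in Lck p53-ko, against 3.24 and 5.37 CPM in Vav p53-ko mice, and 7.1 and 4.58 CPM in Lck p53-wt, against 2.1 and 7.54 CPM in Vav p53-wt mice. The p53-wt groups overlapped, and the Lck p53-ko mice stood well above all other deltaPOZ leukaemias. The log2 fold change was 4.01 in p53-ko mice (SE 0.81, edgeR adjusted p = 0.58) and 0.28 in p53-wt mice (SE 0.72), and the difference between them had an edgeR adjusted p = 0.961. DESeq2 called Iigp1 in the joint contrast (adjusted p = 0.0377).

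Tgtp1, another Irg-family gene, whose promoter is shown above, had 26.5 and 12.1 CPM in Lck p53-ko, against 1.62 and 1.84 CPM in Vav p53-ko, and 2.25 and 2.3 CPM in Lck p53-wt, against 0.726 and 1.5 CPM in Vav p53-wt mice. Lck was above Vav in both p53 statuses, with a joint log2 fold change of 2.25 (SE 0.98, edgeR adjusted p = 1.0). Its neighbour Tgtp2 gave 49.0 and 24.0 CPM in Lck p53-ko, 8.04 and 8.98 CPM in Vav p53-ko, 14.0 and 11.3 CPM in Lck p53-wt and 5.14 and 7.91 CPM in Vav p53-wt mice (joint log2 1.53, SE 0.78). Gbp2, a guanylate-binding protein, had 193.6 and 115.5 CPM in Lck p53-ko, against 28.4 and 22.3 CPM in Vav p53-ko mice, and overlapping values of 25.7 and 28.9 CPM in Lck p53-wt and 13.01 and 38.3 CPM in Vav p53-wt mice. Irgm1, Igtp, Ifi47, Tgtp1, Tgtp2 and Gbp7 were the 6 of 14 GTPases without overlap in both p53 statuses, beside 3.87% of all genes. Iigp1 and Tgtp1 were the 2 with a joint p under 0.05, beside 2.15% of all genes higher in Lck.

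Of the ligands, Ifng itself, interferon gamma, had 1.98 and 2.32 CPM in Lck p53-ko, against 0.145 and 0.251 CPM in Vav p53-ko, and 0.276 and 0.293 CPM in Lck p53-wt, against 0.0382 and 0.239 CPM in Vav p53-wt mice. The Lck p53-ko pair was above every other deltaPOZ leukaemia. The p53-wt groups were separated by only a small gap, 0.276 against 0.239 CPM, at levels of few reads, where library scaling alone can decide the order. The joint log2 fold change was 2.22 (SE 0.79, edgeR adjusted p = 1.0). Both Ifnb1 and Ifna4, which encode type I interferons, had 0 counts in all 8 libraries. Ifnar2, a subunit of the type I receptor, had 81.7 and 77.2 CPM in Lck p53-ko, 55.6 and 54.4 CPM in Vav p53-ko, 70.0 and 70.2 CPM in Lck p53-wt and 48.7 and 53.8 CPM in Vav p53-wt mice, and Ifnar1 and the kinase Jak2 were also without overlap in both p53 statuses. Ifng was the 1 member of these 12 with a joint p under 0.05, beside 2.15% of all genes higher in Lck. With Ifng, 4 of the 12 were without overlap in both p53 statuses, beside 3.87% of all genes.

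Class I antigen presentation, a set of genes that display peptides to CD8 T cells, had a median joint log2 fold change of 0.42 over 17 genes. Of these, 16 of 17 were positive and 6 had p under 0.05 in favour of Lck, beside 2.15% of all genes. In p53-ko mice the median was 0.47, with 17 positive and 6 at p under 0.05, beside 4.22% of all genes. In p53-wt mice it was 0.13, with 11 positive and 0 at p under 0.05 by edgeR, beside 0.927% of all genes. H2-Q4, a non-classical class I gene, had 160.3 and 125.9 CPM in Lck p53-ko, against 69.4 and 54.7 CPM in Vav p53-ko, and 99.7 and 130.0 CPM in Lck p53-wt, against 93.5 and 56.9 CPM in Vav p53-wt mice (joint log2 0.91, SE 0.27). Its groups were apart in both p53 statuses. H2-D1, a classical heavy chain, had 1025.7 and 600.5 CPM in Lck p53-ko, against 265.2 and 238.3 CPM in Vav p53-ko mice, but 352.6 and 291.7 CPM in Lck p53-wt and 393.5 and 259.8 CPM in Vav p53-wt mice. For H2-D1 the log2 fold change was 1.69 in p53-ko (SE 0.38, edgeR adjusted p = 0.691) and -0.02 in p53-wt mice (SE 0.37), and the difference had an adjusted p = 0.996.

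H2-Q7 had the same form, with 54.8 and 50.7 CPM in Lck p53-ko, against 9.44 and 9.6 CPM in Vav p53-ko, and overlapping values of 21.3 and 14.9 CPM in Lck p53-wt and 26.1 and 12.6 CPM in Vav p53-wt mice. Tap1, a subunit of the peptide transporter, had 303.3 and 238.2 CPM in Lck p53-ko, against 141.4 and 135.3 CPM in Vav p53-ko, and 145.2 and 153.6 CPM in Lck p53-wt, against 146.3 and 111.2 CPM in Vav p53-wt mice. H2-T23 and Tapbp, the chaperone that bridges class I and the transporter, were the other 2 with a joint p under 0.05 (log2 0.48 and 0.58, against 0.29 and 0.38 without Lck p53-ko replicate 1), while Psmb8, an immunoproteasome subunit, had a joint log2 fold change of 0.02 (SE 0.2), and Psme1 was the 1 member with a negative one. Class I heavy chains share long stretches of sequence, so reads that fit several of them may have been set aside as not unique, and their levels are uncertain. Over the 11 class II genes the median joint log2 fold change was 0.1. H2-DMa was the 1 gene at p under 0.05 (log2 0.71, SE 0.31), beside 2.15% of all genes higher in Lck.

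Counts at p under 0.05 depended on the fit and on single mice. In the additive model with p53 status as a block, 8 of 16 factors, 12 of 30 effectors, 8 of 14 GTPases and 6 of 17 class I genes were higher in Lck, beside 4.05% of all genes, and in a fit over the 8 deltaPOZ libraries 9, 10, 11 and 9, beside 5.13%. In the fit over 16 libraries, most counts of these lists fell when a mouse was left out, as did most shares over all genes. Such fits leave a group without a replicate, so only their medians are given. Mean log2 CPM of the antiviral effectors was 4.98 and 4.46 in Lck p53-ko, 4.03 and 4.09 in Vav p53-ko, 4.59 and 3.78 in Lck p53-wt and 3.72 and 3.67 in Vav p53-wt mice, so Lck p53-wt replicate 2 lay just above the Vav p53-wt pair. Without Lck p53-wt replicate 1 the median joint log2 fold change of the antiviral effectors was 0.33, against 0.63 with all mice, and without Lck p53-ko replicate 1 it was 0.39. For the factors and sensors the median of 0.57 became 0.37 without Vav p53-wt replicate 1 and 0.38 without Lck p53-ko replicate 2. The GTPase median ran from 0.48 to 0.78 and the class I median from 0.31 to 0.52 over the alternatives tried. Without Vav p53-wt replicate 2, the library that stood apart, medians were 0.57, 0.65, 0.78 and 0.45 for factors, effectors, GTPases and class I.

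**Figure D2:**
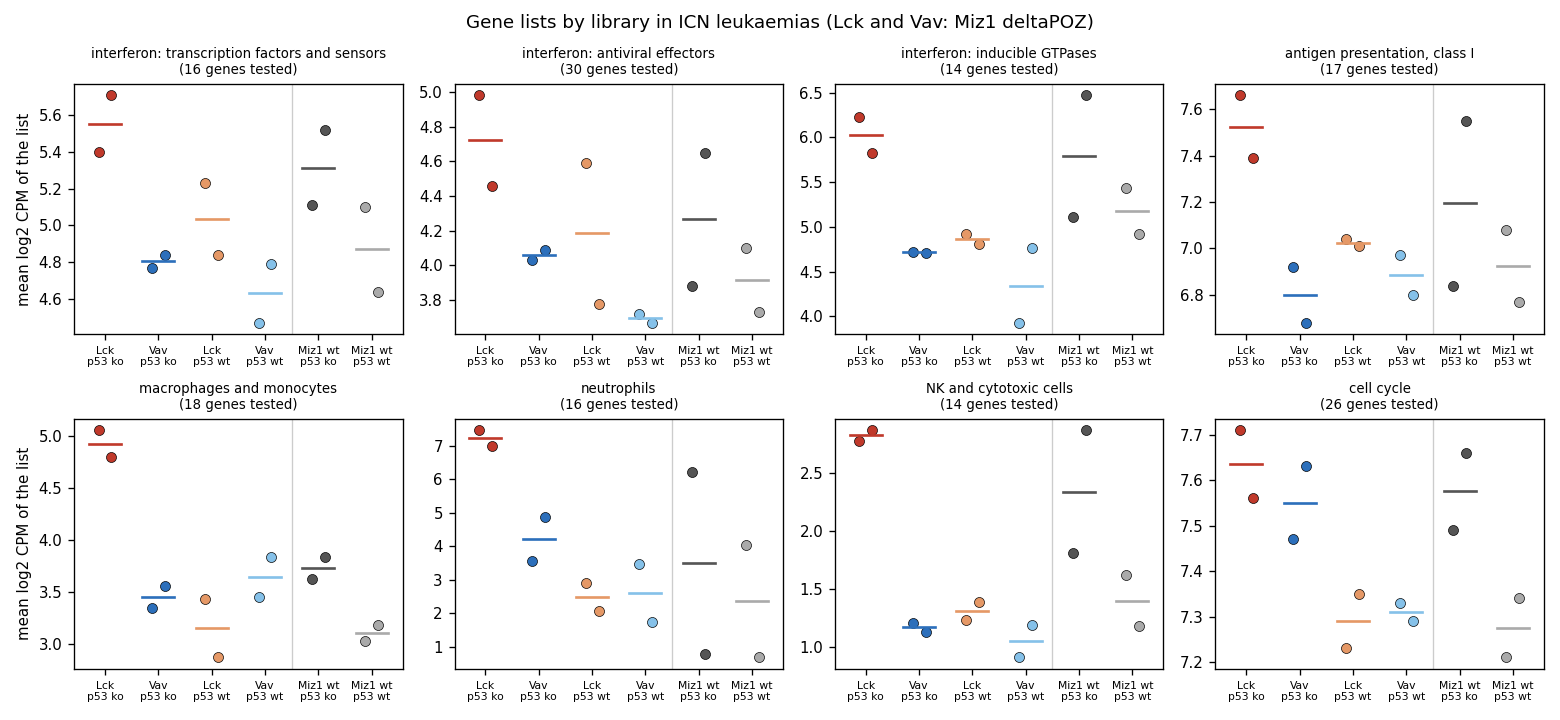
Mean log2 CPM over the tested genes of 8 lists in each library, 2 mice per group, with the bar at the group mean. Lck p53-ko mice are above Vav p53-ko mice in every list but cell cycle, where they overlap, and in p53-wt mice macrophage genes are higher in Vav than in Lck.

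The second question was how the Lck and Vav leukaemias differ within each p53 status and whether the differences are equal. In p53-ko mice, edgeR called 0 genes (0.0%), with 738 (4.22%) higher and 203 (1.16%) lower at an unadjusted p under 0.05, a lowest adjusted p of 0.58, and 128 genes called by DESeq2 (113 higher and 15 lower). In p53-wt mice the same test called 0 genes (0.0%), with 162 (0.927%) higher and 127 (0.727%) lower, a lowest adjusted p of 0.135, and 17 calls by DESeq2 (12 higher and 5 lower). The difference of the p53-ko effect minus the p53-wt effect also had 0 calls (0.0%), a lowest adjusted p of 0.139, 488 genes (2.79%) above and 165 (0.944%) below 0 at an unadjusted p under 0.05, and 53 calls by DESeq2.

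Macrophage, neutrophil and NK genes were mostly higher in Lck than in Vav p53-ko mice. Of 18 macrophage and monocyte genes, 13 were higher in Lck than in Vav p53-ko mice at p under 0.05, beside 4.22% of all genes, with a median log2 fold change of 1.37. In p53-wt mice 0 of the 18 were higher at p under 0.05 by edgeR, 1 of 18 had a positive log2 fold change, and the median was -0.54. The difference between the effects had p under 0.05 in 11 of 18, beside 2.79% of all genes, and a median of 1.98, with no adjusted p under 0.05. The p53-ko median became 1.44 without Vav p53-ko replicate 1 and 1.17 without Lck p53-ko replicate 1. Counts at p under 0.05 fell in both fits, for the list and over all genes. Fewer cells of a type and less RNA per cell cannot be told apart in such bulk libraries.

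Csf1r, the receptor for the macrophage growth factor, had 108.1 and 113.9 CPM in Lck p53-ko, against 37.2 and 40.1 CPM in Vav p53-ko mice, and 45.04 and 26.0 CPM in Lck p53-wt, against 53.4 and 48.4 CPM in Vav p53-wt mice. The direction was opposite in the 2 backgrounds, without overlap in either: log2 1.52 in p53-ko (SE 0.3, edgeR adjusted p = 0.58) and -0.52 in p53-wt mice (SE 0.3), and the difference of 2.04 (SE 0.43) had an adjusted p = 0.686. Fcgr1, the high-affinity IgG receptor, had 11.5 and 7.09 CPM in Lck p53-ko, against 1.07 and 2.15 CPM in Vav p53-ko, and 1.1 and 1.33 CPM in Lck p53-wt, against 1.32 and 1.67 CPM in Vav p53-wt mice. C1qc, a chain of the first complement component, had 99.99 and 59.3 CPM in Lck p53-ko, against 26.3 and 22.8 CPM in Vav p53-ko, and 22.6 and 15.9 CPM in Lck p53-wt, against 24.7 and 26.6 CPM in Vav p53-wt mice. The tissue macrophage receptors Cd163, Marco and Timd4, named after their values were seen, were not among the 13, with log2 fold changes in p53-ko mice of -0.05 (SE 0.7), 1.03 (SE 0.7) and 0.7 (SE 0.78).

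The 4 genes of lowest p among those higher in Lck p53-ko mice were Ly6i, Clec7a, Mpeg1 and Grn. Clec7a, the beta-glucan receptor dectin-1, had 19.1 and 20.1 CPM in Lck p53-ko, against 2.09 and 3.93 CPM in Vav p53-ko, and 3.29 and 1.33 CPM in Lck p53-wt, against 4.16 and 3.87 CPM in Vav p53-wt mice (log2 2.7 in p53-ko, SE 0.49, edgeR adjusted p = 0.58). Mpeg1, the pore-forming perforin-2 of macrophages, had 85.8 and 120.4 CPM in Lck p53-ko, against 28.9 and 37.1 CPM in Vav p53-ko, and 43.0 and 30.2 CPM in Lck p53-wt, against 50.05 and 58.9 CPM in Vav p53-wt mice. Ly6i, a surface protein of the Ly6 family, whose members resemble each other in sequence, and Grn, the growth factor progranulin, were the others, with log2 fold changes in p53-ko mice of 3.4 and 1.68. Each of the 4 was higher in Lck p53-ko and lower in Lck p53-wt mice without overlap in either, and Grn overlaps Fam171a2 on the other strand.

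Neutrophil genes had the largest list median, 2.91 in p53-ko mice over 16 genes, all 16 positive and all without overlap there, beside 21.2% of all genes with Lck above Vav in p53-ko mice. Of these, 6 had p under 0.05 (beside 4.22% of all genes). The median became 2.38 without Vav p53-ko replicate 1 and 3.72 without Vav p53-ko replicate 2. Both fits lowered the count, and the share over all genes too. Csf3r, the G-CSF receptor, had 45.7 and 26.4 CPM in Lck p53-ko, against 3.24 and 6.05 CPM in Vav p53-ko, and 5.07 and 2.44 CPM in Lck p53-wt, against 7.49 and 2.2 CPM in Vav p53-wt mice (log2 2.96 in p53-ko, SE 0.83, edgeR adjusted p = 0.708). Ly6g, the antigen used to sort neutrophils, had 27.5 and 12.9 CPM in Lck p53-ko, against 0.782 and 1.57 CPM in Vav p53-ko, and 0.769 and 0.474 CPM in Lck p53-wt, against 1.24 and 0.29 CPM in Vav p53-wt mice. Both were higher in the Lck p53-ko pair than anywhere else among the deltaPOZ leukaemias.

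S100a8, a very abundant granule-cell protein gene named here after its values were seen, had 1811.2 and 1627.0 CPM in Lck p53-ko, 101.0 and 343.6 CPM in Vav p53-ko, 81.6 and 41.4 CPM in Lck p53-wt and 118.1 and 31.4 CPM in Vav p53-wt mice, at a log2 fold change of 2.95 in p53-ko mice (SE 1.51, edgeR adjusted p = 0.956). Miz1-wt ICN p53-ko mice had 914.6 and 11.7 CPM of the same gene, so mice of one group could differ as widely. Summed over the list, neutrophil genes made up 9771.3 and 6916.3 CPM in Lck p53-ko, 590.2 and 1667.4 CPM in Vav p53-ko, 329.2 and 174.4 CPM in Lck p53-wt and 495.2 and 126.2 CPM in Vav p53-wt mice.

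NK and cytotoxic genes had a median log2 fold change of 1.92 in p53-ko mice over 14 tested genes, 7 of them higher and 1 lower in Lck at p under 0.05, beside 4.22% and 1.16% of all genes. The median was 1.92 and 1.96 without Vav p53-ko replicate 1 and 2. It was 2.06 and 1.85 without Lck p53-ko replicate 1 and 2. Counts at p under 0.05 fell in all these fits, for the list and over all genes. Eomes, a T-box factor of NK and memory T cells, had 7.28 and 5.27 CPM in Lck p53-ko, against 1.2 and 0.856 CPM in Vav p53-ko, and 1.03 and 1.56 CPM in Lck p53-wt, against 0.688 and 0.597 CPM in Vav p53-wt mice, apart in both. Il2rb, a chain of the IL-2 and IL-15 receptors, had 20.05 and 22.3 CPM in Lck p53-ko, against 7.97 and 8.33 CPM in Vav p53-ko, and overlapping values of 25.4 and 15.9 CPM in Lck p53-wt and 7.43 and 16.1 CPM in Vav p53-wt mice. Eomes and Il2rb were the 2 members with a joint p under 0.05 (joint log2 1.8, SE 0.7, and 1.09, SE 0.4), beside 2.15% of all genes higher in Lck. Klrb1c, which encodes the NK1.1 antigen, went the other way with 14.4 and 5.43 CPM in Lck p53-ko, 69.1 and 8.5 CPM in Vav p53-ko, 259.5 and 161.7 CPM in Lck p53-wt and 53.2 and 86.8 CPM in Vav p53-wt mice. The NK receptor gene Klra8 had 0 counts in all 4 p53-ko libraries. Summed over the list, NK genes made up 239.1 and 490.9 CPM in Lck p53-ko, 191.9 and 112.2 CPM in Vav p53-ko, 564.0 and 381.1 CPM in Lck p53-wt and 171.4 and 430.1 CPM in Vav p53-wt mice. Gzma, the protease granzyme A, named after its values were seen, made up much of these sums, with 127.8 and 374.3 CPM in Lck p53-ko, 96.3 and 69.9 CPM in Vav p53-ko, 257.1 and 184.2 CPM in Lck p53-wt and 96.5 and 306.9 CPM in Vav p53-wt mice.

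Megakaryocyte and platelet genes had the same signs as the macrophage genes. In p53-ko mice 10 of 10 were positive, with a median log2 fold change of 1.67, and 10 of 10 were without overlap (beside 21.2% of all genes), while in p53-wt mice 0 of 10 were positive, with a median of -0.59. None of the 10 had p under 0.05 in either by edgeR. Their summed level was 81.8 and 60.9 CPM in Lck p53-ko, 18.04 and 43.3 CPM in Vav p53-ko, 55.55 and 14.9 CPM in Lck p53-wt and 35.2 and 63.5 CPM in Vav p53-wt mice.

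**Figure D3:**
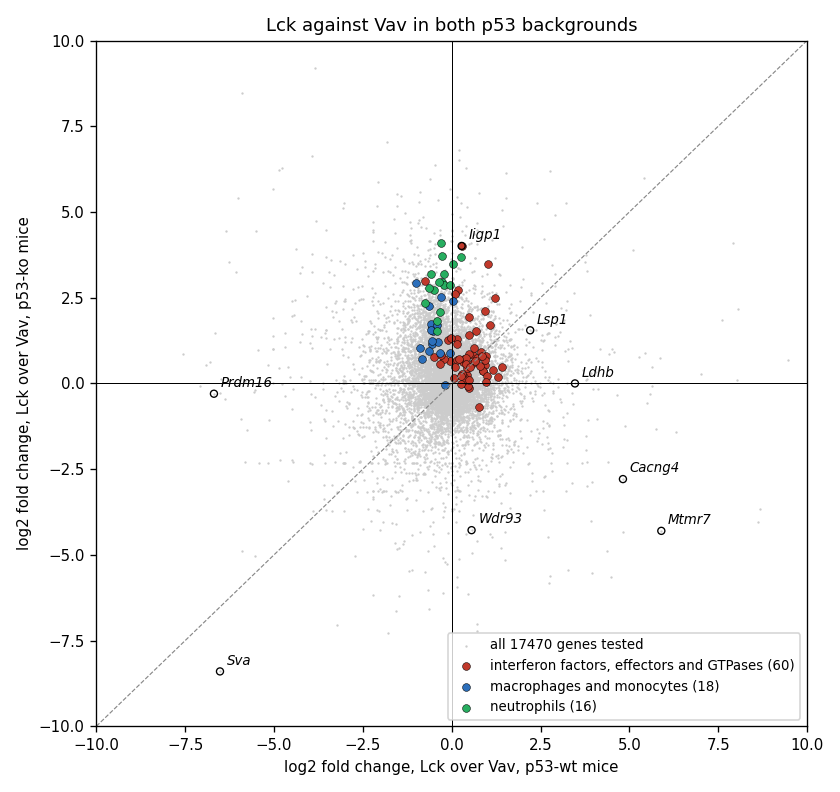
Log2 fold change of Lck over Vav in p53-ko mice (vertical) against that in p53-wt mice (horizontal) for 17470 genes, with 4 genes outside the plotted range of 10. Interferon genes (red) lie mostly above 0 on both axes, whereas 17 of 18 macrophage (blue) and 16 of 16 neutrophil (green) genes lie above 0 in p53-ko mice, and 1 and 2 of them above 0 in p53-wt mice.

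These cell type genes and the interferon lists were both on the Lck side in p53-ko mice. Summed macrophage genes were 1904.8 and 1506.9 CPM in Lck p53-ko, against 383.7 and 471.9 CPM in Vav p53-ko, and 381.0 and 250.3 CPM in Lck p53-wt, against 424.3 and 529.4 CPM in Vav p53-wt mice, and no macrophage or neutrophil gene of the lists was at 0 counts in any of the 8 libraries. In p53-wt mice 13 of 16 factors, 26 of 30 antiviral effectors, 13 of 14 GTPases and 6 of 12 ligands, receptors and kinases had a positive log2 fold change, with medians of 0.45, 0.55, 0.4 and 0.03, beside 1 of 18 macrophage genes and a median of -0.54. At an unadjusted p under 0.05 by edgeR in p53-wt mice, 1 of the 16 factors was higher in Lck, beside 0.927% of all genes. Among the antiviral effectors, the GTPases and the ligands, receptors and kinases, 0 were. In p53-wt mice the mean log2 CPM of the GTPases was 4.92 and 4.81 in Lck and 3.93 and 4.76 in Vav. That of the factors was 5.23 and 4.84 in Lck and 4.47 and 4.79 in Vav. In both lists Vav p53-wt replicate 2 lay close to the lower Lck p53-wt mouse, so these p53-wt medians lean on single mice. The share of the p53-ko interferon values that comes from such cells was not tested. No match to the GAAA motif above was found in the windows of the 12 macrophage and 14 neutrophil genes that have one. Among all tested genes with a window 3.91% held it, so 0 matches in so few genes is near that share. The motif in marker genes cannot tell which cells express the interferon genes.

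Inflammatory genes under NF-kB control had 7 of 20 higher in Lck p53-ko mice at p under 0.05 (beside 4.22%), with a median log2 fold change of 0.74 in p53-ko and 0.07 in p53-wt mice. Ccl3, a chemokine of myeloid and T cells, had 5.11 and 2.89 CPM in Lck p53-ko, against 0.418 and 0.856 CPM in Vav p53-ko, and 0.316 and 0.406 CPM in Lck p53-wt, against 0.248 and 0.648 CPM in Vav p53-wt mice. Cxcl9, a chemokine that interferon gamma induces, had 12.5 and 13.6 CPM in Lck p53-ko, against 0.982 and 1.25 CPM in Vav p53-ko, and 1.4 and 1.15 CPM in Lck p53-wt, against 0.898 and 4.62 CPM in Vav p53-wt mice (log2 3.54 in p53-ko, SE 0.96, edgeR adjusted p = 0.708). Both were apart in p53-ko mice and overlapped in p53-wt mice. Cxcl2, Ccl4, Ccl5, Il1b and Tnf were the other members with p under 0.05 in p53-ko mice.

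Homing receptors split between the 2 patterns. Itgb7, the beta chain of the gut-homing integrin, had 61.8 and 103.6 CPM in Lck p53-ko, against 40.9 and 35.5 CPM in Vav p53-ko, and 132.2 and 59.0 CPM in Lck p53-wt, against 38.9 and 32.6 CPM in Vav p53-wt mice (joint log2 1.27, SE 0.52). S1pr4, a sphingosine phosphate receptor of lymphocytes, had 30.2 and 35.2 CPM in Lck p53-ko, against 20.02 and 13.8 CPM in Vav p53-ko, and 47.7 and 37.2 CPM in Lck p53-wt, against 29.5 and 23.1 CPM in Vav p53-wt mice (joint log2 0.82, SE 0.37). Those 2 were apart in both p53 statuses. The chemokine receptor Cxcr6 was highest in Lck p53-ko mice: it had 4.84 and 5.05 CPM there, against 0.509 and 0.647 CPM in Vav p53-ko, and 0.454 and 0.451 CPM in Lck p53-wt, against 0.42 and 0.904 CPM in Vav p53-wt mice (log2 3.09 in p53-ko, SE 0.82). In all, 4 of 20 homing genes had a joint p under 0.05 (beside 2.15%). That count fell whichever mouse was left out, as did most shares over all genes. The list median of 0.44 became 0.14 without Lck p53-ko replicate 2.

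Neither gene that shares its name with an ending differed detectably between the groups. Lck, the kinase whose promoter shares the name ending, had 742.5 and 954.8 CPM in Lck p53-ko, 1086.4 and 955.5 CPM in Vav p53-ko, 742.0 and 956.5 CPM in Lck p53-wt and 710.7 and 857.6 CPM in Vav p53-wt mice. Vav1, an exchange factor downstream of it, had 199.4 and 171.6 CPM in Lck p53-ko, 207.9 and 205.3 CPM in Vav p53-ko, 170.1 and 192.4 CPM in Lck p53-wt and 179.7 and 175.6 CPM in Vav p53-wt mice. The joint log2 fold changes were -0.08 (SE 0.19) and -0.06 (SE 0.19). Notch1, the receptor behind the inducing transgene, had 529.9 and 892.3 CPM in Lck p53-ko, 622.9 and 277.4 CPM in Vav p53-ko, 362.2 and 612.4 CPM in Lck p53-wt and 297.8 and 916.8 CPM in Vav p53-wt mice, overlapping throughout.

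In T cell receptor signalling 2 of 22 genes had a joint p under 0.05, both higher in Lck, and the median was 0.23. At that level 2.15% of all genes were higher and 1.0% lower in Lck, which applies to every list of this paragraph. Nfatc1, a calcium-dependent factor, had 20.8 and 34.4 CPM in Lck p53-ko, against 20.1 and 14.7 CPM in Vav p53-ko, and 76.7 and 70.4 CPM in Lck p53-wt, against 44.4 and 18.2 CPM in Vav p53-wt mice (joint log2 0.95, SE 0.28), apart in both though by little in p53-ko mice. Lcp2, the adaptor SLP-76, was the other (joint log2 0.43, SE 0.19). Gata3 was the 1 of 16 T identity genes with p under 0.05 (joint log2 0.71, SE 0.3, and 0.27 without Lck p53-ko replicate 2). Of 16 T identity genes 14 were positive in p53-wt mice (median 0.27) and 7 in p53-ko mice (median -0.06). Genes of maturing and peripheral T cells had a median of 0.49 in p53-ko mice, with 13 of 18 positive, and 0.63 in p53-wt mice, with 13 of 18 positive and 10 without overlap (beside 16.1% of all genes). Of these, Itgb7 above was the 1 member with a joint p under 0.05. Cell cycle genes, with 0 of 26 at p under 0.05 in edgeR and a median of 0.01, and Notch targets, with 0 of 19 and 0.17, differed by amounts not detectable with this number of mice. B cell genes had a median of -0.35, and p53 targets one of 0.17 with Sesn2 alone at p under 0.05 (joint log2 0.92, and 0.36 without Lck p53-ko replicate 1).

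Among genes linked to Miz1, Ambra1, an autophagy scaffold, had 56.5 and 55.8 CPM in Lck p53-ko, against 39.3 and 42.3 CPM in Vav p53-ko, and 50.9 and 60.8 CPM in Lck p53-wt, against 48.1 and 41.9 CPM in Vav p53-wt mice (joint log2 0.39, SE 0.16). The 4 Miz1-wt ICN leukaemias, with 80.7 and 76.6 CPM in p53-ko and 79.6 and 74.4 CPM in p53-wt mice, all lay above both. Snx18, a sorting nexin, had 40.0 and 40.5 CPM in Lck p53-ko, against 9.53 and 17.1 CPM in Vav p53-ko, and 9.998 and 9.07 CPM in Lck p53-wt, against 11.8 and 12.6 CPM in Vav p53-wt mice. Only the Lck p53-ko pair reached the range of the Miz1-wt ICN leukaemias, 67.6 and 38.7 CPM in p53-ko and 47.4 and 37.4 CPM in p53-wt mice. Its log2 fold change was 1.59 in p53-ko mice (SE 0.34, edgeR adjusted p = 0.58), and the difference between backgrounds had an adjusted p = 0.867. These were the 2 of 20 Miz1-linked genes with a joint p under 0.05, beside 2.15% of all genes higher in Lck. Rpl22, a ribosomal protein gene on the same list, had 574.1 and 420.3 CPM in Lck p53-ko, 278.0 and 303.8 CPM in Vav p53-ko, 372.8 and 324.2 CPM in Lck p53-wt and 356.0 and 328.5 CPM in Vav p53-wt mice.

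Other lists gave isolated members, beside 2.15% of all genes higher and 1.0% lower in Lck at a joint p under 0.05. Ulk1, the kinase that starts autophagy, had 70.1 and 37.6 CPM in Lck p53-ko, against 24.1 and 34.5 CPM in Vav p53-ko, and 37.6 and 50.9 CPM in Lck p53-wt, against 36.5 and 28.8 CPM in Vav p53-wt mice (joint log2 0.66, SE 0.22, and 0.38 without Lck p53-ko replicate 1), and with Atg9a it made 2 of 24 autophagy genes with p under 0.05. Ribosome biogenesis genes leaned to Vav: 20 of 22 had a negative joint log2 fold change, with a median of -0.28. Gnl3 (nucleostemin) had 136.3 and 107.7 CPM in Lck p53-ko, against 177.6 and 187.9 CPM in Vav p53-ko, and 134.6 and 141.5 CPM in Lck p53-wt, against 286.4 and 148.8 CPM in Vav p53-wt mice, and was the 1 member with p under 0.05. That joint log2 fold change of -0.62 for Gnl3 became -0.34 without Vav p53-wt replicate 1, and the list median became -0.12 without it, -0.17 without Lck p53-ko replicate 2 and -0.44 without Lck p53-ko replicate 1. All 17 erythroid genes tested had a positive joint log2 fold change, with a median of 0.53 and 0 genes at p under 0.05 in edgeR. Medians were close to the 0.01 of all genes for leukaemia transcription factors (0.01), cholesterol synthesis (0.05), double-positive thymocyte genes (0.06) and the Bcl2 family (0.09). In glycolysis, with a median of -0.17, Ldhb was the 1 gene of 21 at p under 0.05.

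Several genes outside the lists were among the 8 of lowest joint p in their direction. Lsp1, an actin-binding protein of leukocytes on chromosome 7 (142460809 to 142494867), had 104.2 and 92.4 CPM in Lck p53-ko, against 29.8 and 37.5 CPM in Vav p53-ko, and 122.0 and 75.2 CPM in Lck p53-wt, against 19.8 and 22.8 CPM in Vav p53-wt mice. Lck was above Vav throughout, with similar fold changes in both backgrounds (joint log2 1.88, SE 0.44, edgeR adjusted p = 1.0, DESeq2 adjusted p = 0.0377). All 4 Miz1-wt ICN leukaemias, with 107.0 and 68.1 CPM in p53-ko and 80.6 and 74.8 CPM in p53-wt mice, lay above the 4 Vav mice. Lsp1 overlaps Prr33 on the other strand, and their counts may mix.

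Gm8995, an unnamed gene model on the same chromosome, had 135.7 and 143.4 CPM in Lck p53-ko, against 73.8 and 60.9 CPM in Vav p53-ko, and 204.5 and 186.4 CPM in Lck p53-wt, against 76.2 and 71.8 CPM in Vav p53-wt mice (joint log2 1.23, SE 0.25, DESeq2 adjusted p = 0.0308). Pacs1, a sorting protein of the trans-Golgi network, had 33.2 and 29.6 CPM in Lck p53-ko, against 17.7 and 22.1 CPM in Vav p53-ko, and 26.8 and 27.2 CPM in Lck p53-wt, against 19.4 and 15.7 CPM in Vav p53-wt mice. In both genes the groups did not overlap, at well measured levels. The gene Pacs1 overlaps Gm27468 on the same strand. Apobec2 and Ggt1 were also apart in both backgrounds at 0.119 to 3.06 and 0.248 to 2.79 CPM.

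In the other direction, Sva, a gene known from seminal vesicle tissue, on chromosome 6 (42038394 to 42042851), had 1 count over the 4 Lck libraries and 214 over the 4 Vav libraries. The ratio of count rates was 0.00514, with an exact 95% interval of 0.00013 to 0.029 that covers counting error only. By library it had 0.0 and 0.0 CPM in Lck p53-ko, 0.4 and 1.27 CPM in Vav p53-ko, 0.0197 and 0.0 CPM in Lck p53-wt and 1.18 and 1.18 CPM in Vav p53-wt mice (edgeR adjusted p = 0.551). DESeq2 called Sva with an adjusted p of 6.89e-05. Platr27, a long noncoding RNA, had 0.0901 and 0.121 CPM in Lck p53-ko, against 1.51 and 1.36 CPM in Vav p53-ko, and 0.0592 and 0.0451 CPM in Lck p53-wt, against 1.51 and 0.119 CPM in Vav p53-wt mice. The joint log2 fold change of Platr27, -3.81, became -2.43 without Vav p53-wt replicate 1. Ephb4, an ephrin receptor, had 1.17 and 0.303 CPM in Lck p53-ko, against 2.69 and 2.99 CPM in Vav p53-ko, and 1.3 and 0.971 CPM in Lck p53-wt, against 4.01 and 2.81 CPM in Vav p53-wt mice, and overlaps Zan on the other strand. All 3 were below Vav in both backgrounds, for Sva and Platr27 at levels of few reads.

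A second set had low joint p because 1 of the 4 groups stood apart. Ldhb, the heart-type lactate dehydrogenase subunit on chromosome 6 (142490249 to 142507957), had 9.64 and 7.23 CPM in Lck p53-ko, 7.46 and 9.46 CPM in Vav p53-ko, 6.33 and 7.45 CPM in Lck p53-wt and 0.936 and 0.307 CPM in Vav p53-wt mice. Only the Vav p53-wt pair was low, at log2 3.47 for Lck over Vav in p53-wt mice (SE 0.45, edgeR adjusted p = 0.135). Prdm16, a zinc finger regulator of blood stem cells, had 0.586 and 0.666 CPM in Lck p53-ko, 1.2 and 0.334 CPM in Vav p53-ko, 0.355 and 0.158 CPM in Lck p53-wt and 21.9 and 31.9 CPM in Vav p53-wt mice. Here the same pair was high (log2 -6.69, SE 0.94, edgeR adjusted p = 0.152), and Miz1-wt ICN p53-wt leukaemias were also high at 6.17 and 14.1 CPM, against 0.559 and 0.119 CPM in Miz1-wt ICN p53-ko mice. Prdm16 overlaps Gm13134, Gm13133 and B230104I21Rik on the other strand, and their counts may mix.

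**Figure D4:**
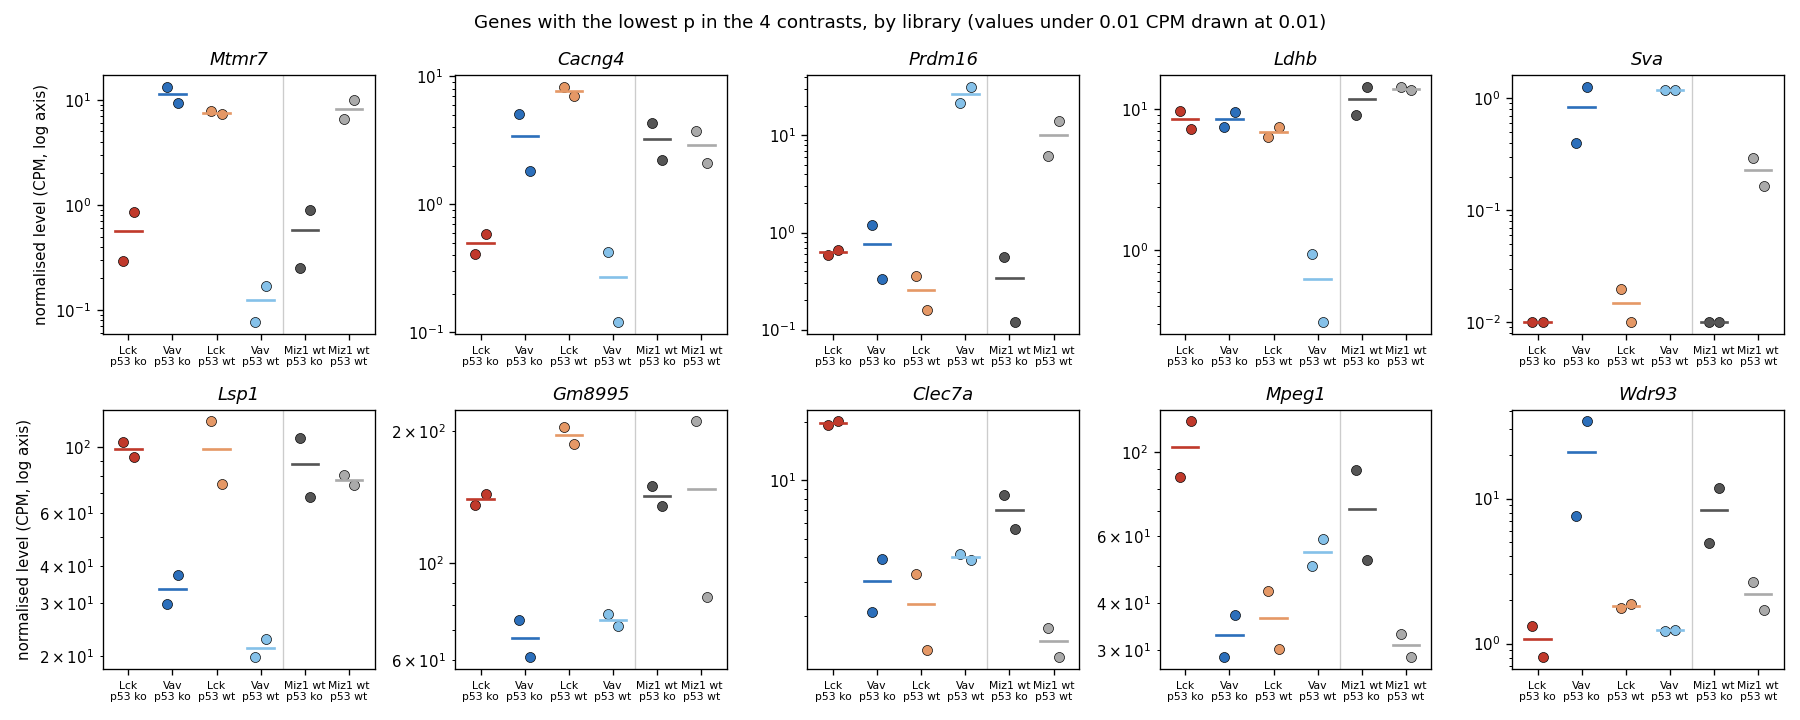
Normalised level (CPM, log axis, values under 0.01 drawn at 0.01) of 10 genes of lowest p in each library, 2 mice per group, with the bar at the group mean. Mtmr7 and Cacng4 are high in Vav p53-ko and Lck p53-wt mice and low in the other 2 deltaPOZ groups, Prdm16 and Ldhb set the Vav p53-wt pair apart, and Lsp1 and Gm8995 separate Lck from Vav in both p53 statuses.

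The strongest difference between the backgrounds was a reversal. Mtmr7, a myotubularin-related lipid phosphatase on chromosome 8 (40551095 to 40634797), had 0.293 and 0.848 CPM in Lck p53-ko, against 13.3 and 9.23 CPM in Vav p53-ko, and 7.77 and 7.34 CPM in Lck p53-wt, against 0.0764 and 0.171 CPM in Vav p53-wt mice. The log2 fold change was -4.3 in p53-ko (SE 0.89) and 5.9 in p53-wt mice (SE 0.98), and the difference of -10.19 (SE 1.33) had an edgeR adjusted p = 0.139. Cacng4, a calcium channel gamma subunit, repeated it with 0.405 and 0.586 CPM in Lck p53-ko, against 5.06 and 1.82 CPM in Vav p53-ko, and 8.3 and 6.97 CPM in Lck p53-wt, against 0.42 and 0.119 CPM in Vav p53-wt mice. Its difference was -7.61 (SE 1.25, edgeR adjusted p = 0.406). Mtmr7 overlaps Vps37a, and Cacng4 overlaps Gm11650, on the other strand.

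Further genes of the p53-ko contrast were lower in Lck. Wdr93, a WD-repeat protein, had 1.33 and 0.808 CPM in Lck p53-ko, against 7.64 and 34.0 CPM in Vav p53-ko, and 1.76 and 1.87 CPM in Lck p53-wt, against 1.22 and 1.25 CPM in Vav p53-wt mice. Reep1, an endoplasmic reticulum shaping protein, had 14.2 and 19.7 CPM in Lck p53-ko, against 33.8 and 31.8 CPM in Vav p53-ko, and 31.3 and 37.5 CPM in Lck p53-wt, against 32.1 and 34.7 CPM in Vav p53-wt mice. In Reep1 the Lck p53-ko pair was the only low group (log2 -0.95, SE 0.24, edgeR adjusted p = 0.691).

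The leading T cell receptor beta segment varied from mouse to mouse. Counts over 22 Trbv segments were 7608 to 32812 per library, or 0.0157 to 0.0714% of gene counts. In Lck p53-ko mice the leading segments were Trbv16 with 77.5% and Trbv5 with 22.7% of those counts, and in Vav p53-ko mice Trbv12-2 with 30.7% and Trbv17 with 34.2%. In Lck p53-wt mice Trbv13-2 led in both, with 91.2 and 55.2%, and in Vav p53-wt mice Trbv16 led with 96.8% and Trbv20 with 94.9%. The segments Trbv16 and Trbv13-2 thus led in more than 1 library, and the leading segment differed within 3 of the 4 groups. The segments most often counted are described as such, without a call of clonality.

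**Figure D5:**
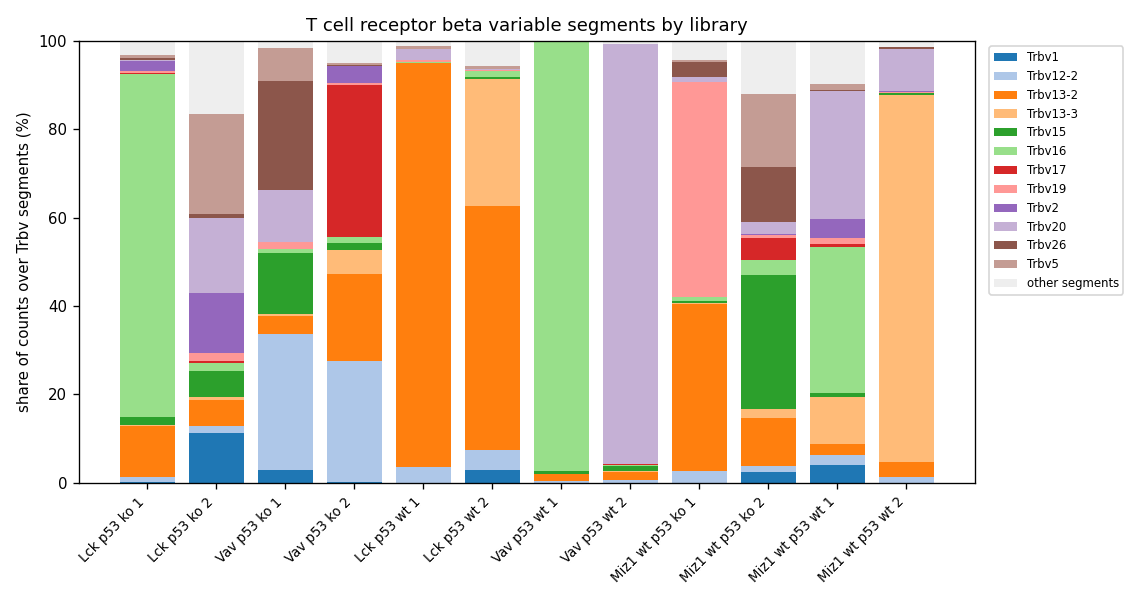
Share of counts over 22 T cell receptor beta variable segments (percent, stacked to 100) in each library, for the 8 deltaPOZ and the 4 Miz1-wt ICN leukaemias. A single segment holds over 90% in Lck p53-wt replicate 1 and both Vav p53-wt mice, while Lck p53-ko replicate 2 spreads over 7 segments of more than 5% each.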

How the data were processed

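RNA-seq libraries (MagMax-96 RNA extraction, TruSeq Stranded mRNA kit, per the labels' protocols) were given as read counts per Ensembl gene, 1 table per mouse, as deposited by the authors. The submitters' processing notes name TopHat2 2.0.10, SAMtools, HTSeq, DESeq, and mm10 and GRCm38 as builds. Neither annotation release nor strand setting is given in the sources used here. Of 41214 identifiers, 40340 had a GENCODE M21 name. Each file ends with 5 totals that name no gene, which stayed out of library sizes: in the 8 libraries reads without a feature were 14.22 to 21.5% and alignments that were not unique 45.81 to 56.19%, leaving 26.38 to 39.64% in genes.

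Counts of all 16 libraries in 8 groups of 2 mice were fitted with edgeR 4.0.16 (R 4.3.3, TMM scaling, filterByExpr, 17470 genes, glmQLFit and glmQLFTest, 8 residual degrees of freedom), with Benjamini-Hochberg adjustment over all genes. SE is the log2 fold change divided by the square root of F. The design text gives 2 mice per genotype, and every p-value rests on the spread within such pairs. Means of lists are of log2 CPM with a prior count of 2. "Without overlap" means that both Lck mice lie on one side of both Vav mice. The fit was tested on simulated data.

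Genes were named from the 8 of lowest p per direction in the joint contrast and the 4 in each other contrast. These had a group mean of at least 1 CPM and were no receptor segment or sex-linked gene. Not all of them are described, and those left out are mostly lower in Lck. Others that could be named were, per list, the 4 of lowest joint p, and all interferon genes, Lck, the Vav genes, Zbtb17, Trp53 and Notch1. Members and the 40 gene lists were chosen with earlier results of these data known; symbols with no row in the tables, such as Gbp5 and Gbp6, were left out. Alternatives were RLE scaling, DESeq2 1.42.0, no filter, fits over 8 or 12 libraries, an additive model with p53 status as a block, and leaving out each mouse. Promoter windows are RefSeq (GRCm38.p6), used for names and sequence of genes the count tables list by identifier. Some members of the lists are not reported here by name, though the list counts include them.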

Additional observations from a re-analysis of the deposited data

Results flagged for a closer look

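For 7 of the named genes of lowest p every Lck mouse lay on one side of the Vav mice with p53 knocked out and on the other side with p53 present. Differences of log2 fold changes (p53 ko minus p53 wt) were -10.19 for Mtmr7, -7.61 for Cacng4, 3.83 for Ly6i, 3.5 for Clec7a, 2.22 for Mpeg1, 2.34 for Grn and -4.84 for Wdr93. None of the 7 passed edgeR's test of that difference after adjustment, the lowest adjusted p being 0.139. The 7 were picked by low p in these same contrasts, so their separation follows in part from that choice. The share of all genes with such opposite sides is not given here, so the count of 7 is a description only.

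In 86 sets of 4 libraries, 7 held 1 value far from the other 3. Each set mixes p53-ko and p53-wt mice, and the sets share the same 8 libraries, so this count has no chance rate to be set against. Among Lck mice, p53-ko replicate 1 had 45.81% of alignments not unique (others 47.96 to 48.27%). The mean log2 CPM of homing genes was 4.77 in Lck p53-ko replicate 2 (others 3.99 to 4.07), and that of cholesterol synthesis genes was 4.87 in Lck p53-wt replicate 2 (others 4.6 to 4.64). Among Vav mice, p53-wt replicate 2 had 25387 genes detected (others 20083 to 20588) and 56.19% of alignments not unique (others 47.47 to 48.09%). Vav p53-wt replicate 1 was low for the interferon-inducible GTPases, at a mean log2 CPM of 3.93 (others 4.71 to 4.76), and for double-positive thymocyte genes, at 5.04 (others 6.96 to 7.14). In that mouse the recombination gene Rag1 had 8.65 CPM, against 1099.5 CPM in the other Vav p53-wt mouse.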

How the results depend on the processing

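Counts of genes past an adjusted p of 0.05 were 0 in all 4 contrasts and stayed 0 under RLE scaling and, for the joint contrast, in the additive model with p53 status as a block. DESeq2 gave 17 (joint), 128 (p53 ko), 17 (p53 wt) and 53 (difference). With no filter on low counts edgeR tested 30095 genes and gave 277, 476, 193 and 374 in the same order. The median prior degrees of freedom was 3.34 with the filter and infinite without it. At an infinite value edgeR takes a gene's spread from the trend over genes and not from that gene's own mice. These higher counts are therefore no sign of changes lost to the filter. A fit over the 8 deltaPOZ libraries gave 1 call in p53 ko and 1 in the difference (Trbv12-2 in both), and one over the 12 ICN libraries gave 1 (joint), 2 (p53 ko) and 3 (difference). Leaving out each mouse gave 0 to 1 calls in the joint contrast (Platr27, without Vav p53-wt replicate 2), 0 to 0 in p53 ko, 0 to 2 in p53 wt (Ldhb and Mpp4, without Vav p53-wt replicate 1) and 0 to 1 in the difference (Mpp4, without the same mouse). The cause was not tested. Of 1422 alternative values of 105 gene results, 122 passed the threshold and 0 reversed. The 105 were chosen by low p in these same libraries, so the absence of reversals follows in part from that choice. Since none passed as reported, the other 1300 say little about stability, and some moved widely, as the report gives for single mice. Of 162 alternative medians of the 12 lists, 6 moved by more than the spread between mice. The labels pair no Lck mouse with a Vav mouse, so no paired analysis was run. They also give no replicate numbers, and replicates 1 and 2 follow the order of the samples. With 2 mice per group, values near 1 CPM or below rest on few reads and are the least certain.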
